A study of Mus musculus with 9 samples.

Results

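The genes described here carry the bone morphogenetic protein (BMP) signal from the cell surface to the nucleus. They were the receptors Bmpr2 and Bmpr1a, the signal carriers Smad1, Smad5 and Smad4, the inhibitor Smad7, and the transcription factors Id1, Id2, Id3 and Id4. Every probe set that the platform annotation gives to 1 of these 10 genes alone was taken, which came to 22 probe sets of the 22690 on the array; the array names 12393 genes in this way. The genes were selected on their log2(signal + 16) values in these 3 groups, which were already known, so the differences below are descriptions of these animals. Of the 22, 18 were among the brighter 50% of probe sets that were tested, and the 4 dimmer ones were a probe set each of Bmpr1a, Smad1, Smad5 and Id2.

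The arrays, 1 per animal, were Affymetrix arrays read from motor neurons cut by laser out of the lumbar spinal cord of mice killed at 13 days of age. In spinal muscular atrophy (SMA) a shortage of the SMN protein leads to the death of motor neurons. There were 3 groups of 3 mice, and all mice had surgery at postnatal day 1. They were SMA mice given a transplant of NSC (neural stem cells, a reading taken from knowledge of the study and not from the labels), transgenic SMA mice given vehicle, and wild-type mice given vehicle. The alleles, strain and sex of the mice are not given in the labels. About 100 cells went into each collection cap, and the cells on an array were pooled from 1 animal.

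BMP ligands bind a complex of type I receptors, such as Bmpr1a, and type II receptors, of which Bmpr2 is the one most tied to BMPs. The type II receptor phosphorylates the type I receptor, which phosphorylates Smad1 and Smad5, and these enter the nucleus with the shared partner Smad4. Id genes are among the best known direct targets of these Smads, and Smad7 is an inhibitor that closes the loop. Id proteins have a helix-loop-helix but no region that binds DNA, so they hold bHLH transcription factors away from their sites. In the developing spinal cord BMPs pattern the dorsal side and favour astrocytes over oligodendrocytes, while Id1 and Id3 are also known from endothelial cells.

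The promoters of Bmpr2 and Id4 are printed because these were the members whose groups stood apart at their brightest probe set in more than 1 comparison. Each run is the 250 bases before the annotated start, on the plus strand of GRCm38.p6, credited to RefSeq. The Bmpr2 run covers chr1:59764029-59764278 and the Id4 run chr13:48260866-48261115, and capitals mark the motif GGCGCC, known as a GC-rich site bound by Smad1 and Smad5.
Bmpr2: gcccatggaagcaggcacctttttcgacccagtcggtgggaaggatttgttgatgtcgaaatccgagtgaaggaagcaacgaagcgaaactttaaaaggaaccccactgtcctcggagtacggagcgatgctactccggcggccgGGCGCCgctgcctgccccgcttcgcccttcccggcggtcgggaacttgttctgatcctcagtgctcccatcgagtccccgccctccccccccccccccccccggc
Id4: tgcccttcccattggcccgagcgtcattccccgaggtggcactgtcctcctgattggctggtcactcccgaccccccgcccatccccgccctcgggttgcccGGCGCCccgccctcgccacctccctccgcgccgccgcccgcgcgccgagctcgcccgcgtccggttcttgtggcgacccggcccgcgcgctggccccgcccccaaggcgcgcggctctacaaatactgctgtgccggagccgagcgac

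RefSeq promoters were matched for 7 of the 10 members, in 9 windows because Smad5 has 3 starts. GGCGCC was searched on both strands, where it reads the same, and was present in 9.59% of 32851 promoter windows of the same length. Bmpr2, Bmpr1a, Id2, Id4 and 1 of the Smad5 windows held 1 copy each. The Smad4-type motif CAGAC, searched on both strands, was present in 42.2% of all windows, and among the members in Id3, with 2 copies, and in 1 Smad5 window. The E-box CANNTG of bHLH factors, also searched on both strands, was in 66.2% of all windows, and here in Id2 and in 2 of the 3 Smad5 windows. The member windows had a GC content of 60.0% to 78.8%. The shares over all windows were not matched for GC content, so nothing is read from how many member windows held GGCGCC. Each motif was counted whether or not it overlapped another, and these are letters found in a window, not shown to be bound.

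The arrays differed in ways that bear on the values. Actin 3'/5' ratios were 2.48 to 3.11 on 7 arrays, but 4.32 on SMA 3 and 3.66 on wild type 3, which also had the highest 18S ribosomal signals (2765 and 2940, against at most 1832 elsewhere). Muscle actin Acta1 read 1289 and 1414 on SMA 1 and SMA 2, and at most 27.1 on the others. The sexes were uneven between groups by Xist, of the inactive X, and Eif2s3y, of the Y. Transplanted SMA 1 and 2 and SMA 1 and 2 had Xist at 600.7 to 879.5 with Eif2s3y at 0.1 to 0.5, while SMA 3 and all wild-type arrays had Xist at 23.5 to 47.6 with Eif2s3y at 49 to 108.9. On transplanted SMA 3, an array described as 1 animal, the Xist signal was 366.1 and that of Eif2s3y was 84.8, so transcripts of either kind were present. Of the 12 neuron and motor neuron markers with a probe set, 6 were tested, and general neuronal ones among them were bright, with mean signals of 871.1 for Nefl, 452.5 for Stmn2 and 315.3 for Snap25. Of those more particular to motor neurons, Slc18a3, Isl1, Mnx1 and Slc5a7 were too dim to test, at means of 13.4, 8.83, 9.38 and 7.9, and Isl2 was tested at 59.5. Mbp of oligodendrocytes averaged 10728. In such samples fewer cells of a type and less RNA per cell cannot be told apart.

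Bmpr2, the type II receptor, was lowest in transplanted SMA mice, intermediate in SMA mice and highest in wild-type mice. Its signals were 39.5, 13 and 31.9 in transplanted SMA mice, 54.6, 77.3 and 85.3 in SMA mice, and 158.6, 116.1 and 94.1 in wild-type mice. None of these ranges overlapped. The means were 28.1 ± 13.6, 72.4 ± 15.9 and 123 ± 32.8 (SD, n = 3 each) for transplanted SMA, SMA and wild type.

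On the log2(signal + 16) scale the Bmpr2 difference was -1.68 (SE 0.27) for transplanted SMA minus wild type, with a limma adjusted p of 0.105 over all 11313 probe sets. That was rank 6 of the 11313 by p in this comparison, in which no probe set passed an adjusted p of 0.05 (percent called 0). For transplanted SMA minus SMA it was -1.04 (SE 0.27, adjusted p = 0.933, rank 17), and for SMA minus wild type -0.64 (SE 0.27, adjusted p = 0.807, rank 506). Signals in 3 groups that stood apart in the Bmpr2 order were found for 10 of the 11313 tested probe sets (0.0884%), and in the opposite order for 9 (0.0796%).

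The Bmpr2 call depended on how arrays were weighted. With array weights, which count noisy arrays less, transplanted SMA minus wild type was -1.86 (adjusted p = 0.0293), and over all 22 other settings that gave it a value the adjusted p ran from 0.0293 to 0.531. The size depended on the pseudocount, at -2.19 with 1 and -1.02 with 64, and 2 of the transplanted SMA signals, 13 and 31.9, lay under 33.5, the signal at the lowest mean log2 value among tested probe sets. All 22 settings gave a negative difference in each of the 3 comparisons, and Bmpr2 has only 1 probe set on this array, so no second probe set checks it.

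**Figure D1:**
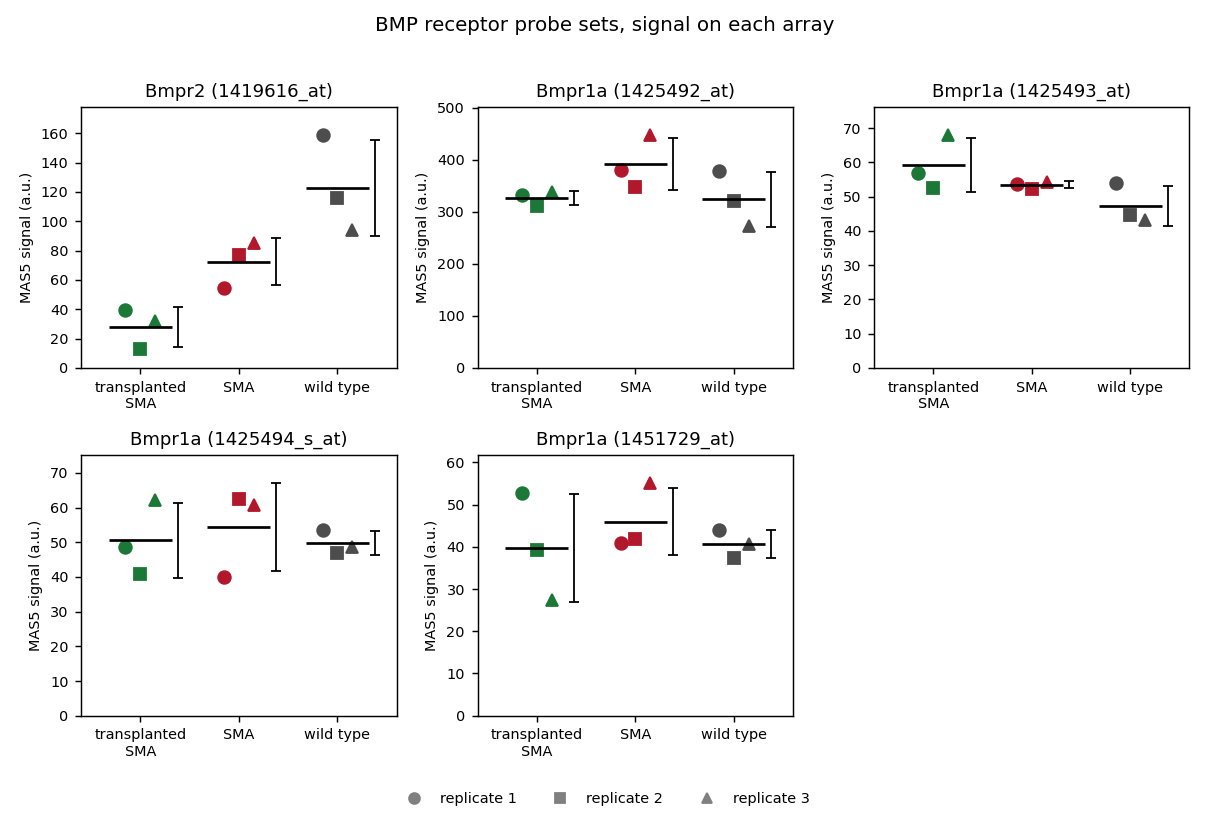
MAS5 signal (arbitrary units, linear axis from 0) of the tested BMP receptor probe sets on each array, with transplanted SMA, SMA and wild type from left to right. Symbols are animals, black lines are means and bars are 1 SD (n = 3); Bmpr2 sits at 13 to 39.5, 54.6 to 85.3 and 94.1 to 158.6 in these groups, while the Bmpr1a groups lie close together.

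Bmpr1a, a type I receptor that works beside Bmpr2, did not share this pattern. Its brightest probe set (1425492_at) read 332.1, 311 and 336.9 in transplanted SMA mice, 380, 347.5 and 446.6 in SMA mice, and 378.7, 319.8 and 272.2 in wild-type mice. Transplanted SMA lay below SMA without overlap, by -0.24 (SE 0.17, adjusted p = 0.933), and wild type overlapped with both. The other 3 tested Bmpr1a probe sets differed by 0.08 to 0.14 for SMA minus wild type, by -0.17 to 0.11 for transplanted SMA minus SMA and by -0.05 to 0.25 for transplanted SMA minus wild type. All groups overlapped at these 3 and at the dim 1425491_at, which read 21.4 to 39.7. The 4 tested Bmpr1a probe sets thus ran from -0.24 to 0.27 over the 3 comparisons, where Bmpr2 reached -1.68.

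No tested probe set of the receptor-activated Smads set the groups apart. Smad1 (1448208_at) read 130.1, 131.8 and 83.3 in transplanted SMA mice, 127.6, 125.7 and 119.2 in SMA mice, and 104.4, 129.1 and 91.4 in wild-type mice. Smad5 (1421047_at) read 53.1, 50.1 and 51 in transplanted SMA mice, 62.5, 40.4 and 84.9 in SMA mice, and 40.2, 41 and 58.8 in wild-type mice. Their groups overlapped in each comparison. The largest differences were 0.18 (SE 0.2) for Smad1 and 0.30 (SE 0.22) for Smad5, both for SMA minus wild type. The 95% intervals of these, from -0.25 to 0.62 and from -0.19 to 0.79, leave room for a difference of moderate size. The other Smad1 probe set was dim, at 16.1 to 22.6.

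The dim second Smad5 probe set (1451873_a_at) read 24.3, 15 and 12.8 in transplanted SMA mice, 19.5, 12.7 and 6.7 in SMA mice, and 6.2, 6.2 and 1.5 in wild-type mice. Both SMA groups lay above wild type without overlap, but with a mean signal at percentile 25.1 of all probe sets it was not tested, and the brighter Smad5 probe set did not show it.

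Smad4, the partner shared by BMP and TGF-beta signals, had 3 bright probe sets that did not move alike against wild type. The brightest (1422486_a_at) averaged 485 ± 102 in transplanted SMA mice, 544 ± 85.7 in SMA mice and 505 ± 87.4 in wild-type mice (SD, n = 3 each). At 1422485_at the signals were 355.6, 272.5 and 249 in transplanted SMA mice, 406.4, 298.7 and 252.6 in SMA mice, and 226, 256.5 and 156.2 in wild-type mice. There SMA minus wild type was 0.55 (SE 0.24, adjusted p = 0.814) and transplanted SMA minus wild type 0.44 (SE 0.24), with overlapping groups. At 1422487_at the same differences were -0.04 (SE 0.22) and -0.25 (SE 0.22), so the sign against wild type depended on the probe set. For transplanted SMA minus SMA all 3 were lower with overlapping groups. These differences were -0.17 (SE 0.20) at 1422486_a_at, -0.11 (SE 0.24) at 1422485_at and -0.21 (SE 0.22) at 1422487_at.

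Smad7, which blocks the activated receptors, had similar means in the groups. It read 91, 129.7 and 97.7 in transplanted SMA mice, 112.5, 78 and 107.7 in SMA mice, and 108.8, 113.5 and 82.1 in wild-type mice. Its differences were 0.05, 0.08 and -0.03 for transplanted SMA minus wild type, for transplanted SMA minus SMA and for SMA minus wild type (SE 0.2 each). The 95% intervals of these differences, from -0.39 to 0.50, from -0.36 to 0.52 and from -0.47 to 0.41, leave room for a difference of moderate size in either direction.

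**Figure D2:**
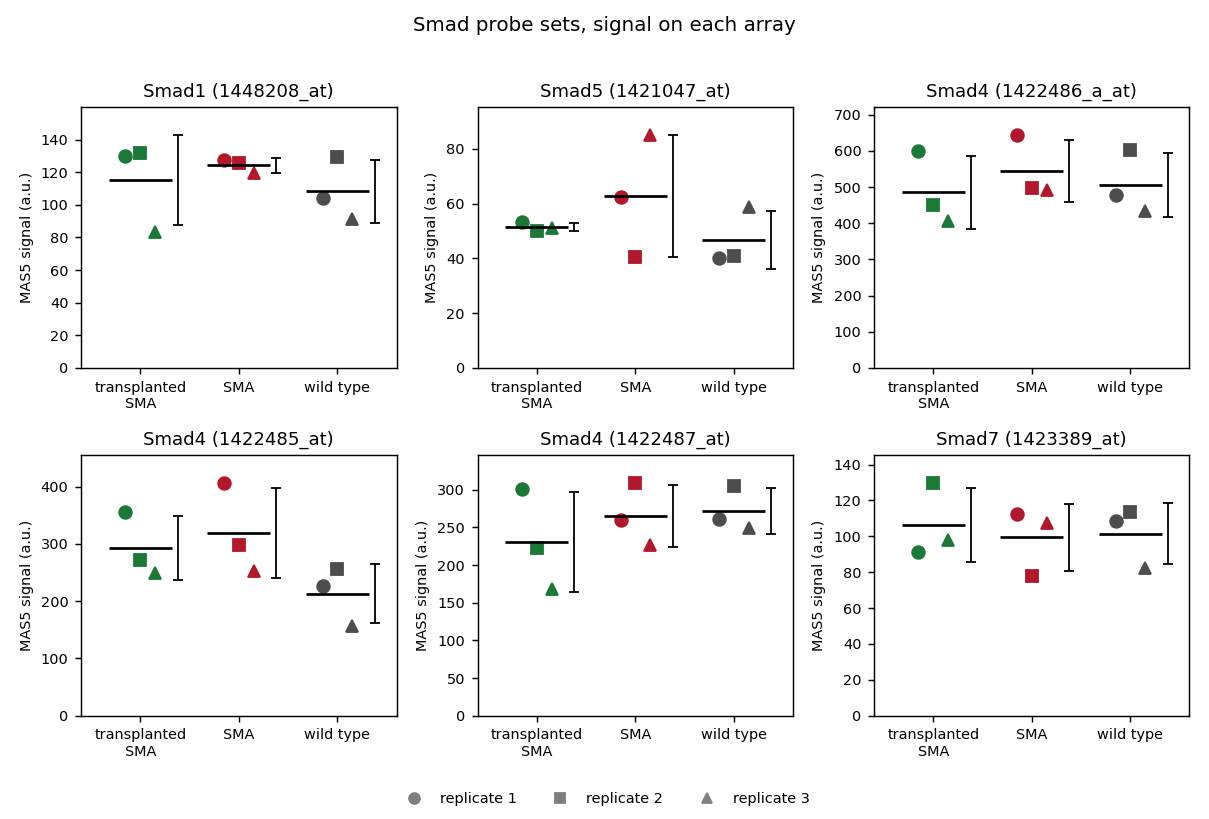
MAS5 signal (arbitrary units, linear axis from 0) of the tested Smad probe sets on each array, with transplanted SMA, SMA and wild type from left to right. Symbols are animals, black lines are means and bars are 1 SD (n = 3); all groups overlap, and 1422485_at of Smad4 has its lowest value, 156.2, in wild type.

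Id4, an Id factor of neural precursors and astrocytes, was the Id gene whose SMA values stood apart. At its brightest probe set (1423259_at) the signals were 278.7, 408.4 and 538 in transplanted SMA mice, 757.7, 743.3 and 665.1 in SMA mice, and 300.2, 509.6 and 313.3 in wild-type mice. Every SMA mouse lay above all mice of the other groups, which overlapped. The means were 408 ± 130 in transplanted SMA, 722 ± 49.8 in SMA and 374 ± 117 in wild type (SD, n = 3 each).

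The Id4 difference at this probe set was 0.96 (SE 0.26, limma adjusted p = 0.534) for SMA minus wild type, -0.84 (SE 0.26, adjusted p = 0.933) for transplanted SMA minus SMA and 0.11 (SE 0.26) for transplanted SMA minus wild type. The first and second of these comparisons share the SMA arrays, so a high SMA group gives opposite signs in them. The first was positive and the second negative in all 23 other settings, with ranges of 0.82 to 1.19 and -1.12 to -0.60.

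The second Id4 probe set (1450928_at) read 150.3, 234.2 and 311.9 in transplanted SMA mice, 231.5, 423.1 and 435.5 in SMA mice, and 168.8, 195.8 and 191.3 in wild-type mice. SMA lay above wild type without overlap, and transplanted SMA overlapped with both. Its differences were 0.87 (SE 0.28) for SMA minus wild type and -0.62 (SE 0.28) for transplanted SMA minus SMA. The third (1423260_at) read 88.4, 139 and 158.6 in transplanted SMA mice, 159.8, 88.6 and 126 in SMA mice, and 71, 87.7 and 79.5 in wild-type mice. Both SMA groups lay above wild type there, by 0.57 (SE 0.24) in transplanted SMA and by 0.53 (SE 0.24) in SMA, though the lowest SMA value, 88.6, hardly passed the highest wild-type value, 87.7. The 3 Id4 probe sets thus shared a higher SMA than wild type, while the lower value in transplanted SMA than in SMA was seen at only 2 of them and without overlap at 1.

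Astrocyte markers were set beside Id4 and did not move alike. For SMA minus wild type 6 of them were higher and 5 lower (median 0.13), and for transplanted SMA minus SMA 8 were higher and 3 lower (median 0.16). The 11 tested astrocyte markers of 12 had summed signals of 11945 to 18651 in transplanted SMA mice, 10717 to 18946 in SMA mice and 11850 to 14889 in wild-type mice. On a scale centred per gene, the mean of the list lay at -0.23, -0.32 and 0.37 on SMA 1, SMA 2 and SMA 3. The part of astrocytes or other cell types in the Id4 values was not tested. The 2 SMA arrays with muscle transcripts had the highest values at the brightest Id4 probe set but not at the second.

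Id1, often used as a readout of BMP signalling, ran in the order transplanted SMA, SMA and wild type by its mean. It read 89.1, 84.8 and 53.7 in transplanted SMA mice, 44.8, 49.1 and 87.2 in SMA mice, and 30.6, 26.7 and 63.5 in wild-type mice, and all groups overlapped. The difference was 0.74 (SE 0.29, adjusted p = 0.711) for transplanted SMA minus wild type, 0.46 (SE 0.29, adjusted p = 0.922) for SMA minus wild type and 0.28 (SE 0.29, adjusted p = 0.945) for transplanted SMA minus SMA. Without SMA 1 and SMA 2 the last of these was -0.19, and without the arrays numbered 3 it was 0.71.

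Endothelial markers were set beside Id1. Within each group the arrays had the same order by Id1 as by the endothelial list, in which 10 of 16 markers were tested. Centred per gene, the list lay at 0.79, 0.12 and 0.06 on transplanted SMA 1 to 3, at -0.57, -0.49 and 0.77 on SMA 1 to 3, and at -0.16, -0.68 and 0.15 on wild type 1 to 3. Its summed signal was 1514 to 2687 in transplanted SMA, 980.8 to 2816 in SMA and 831.1 to 1605 in wild type. The 4 tested markers of pericytes and smooth muscle, of 9, had the same order within each group, with sums of 643.3 to 1664, 446.1 to 1533 and 476.1 to 1619 in transplanted SMA, SMA and wild type. Markers of meninges and fibroblasts had the order of Id1 in transplanted SMA and in SMA, but not in wild type. Across groups the median difference of the endothelial list was 0.48 for transplanted SMA minus wild type and 0.09 for SMA minus wild type. For transplanted SMA minus SMA it was 0.57, and in each comparison the sign was that of Id1. Single arrays of different groups did not always rank alike. On transplanted SMA 2 Id1 was at 84.8 and the list at 0.12, while on wild type 3 they were at 63.5 and 0.15. The part of vessel or meningeal cells in the Id1 values was not tested.

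Id2, which restrains neuronal and oligodendrocyte differentiation, followed the sample number more than the group. Its brightest probe set (1435176_a_at) read 236.9, 345.8 and 512.6 in transplanted SMA mice, 193.5, 333.3 and 520.8 in SMA mice, and 195, 143.3 and 398.2 in wild-type mice. The array numbered 3 was the highest of each group, and 2 of these 3 arrays were SMA 3 and wild type 3 with their high actin ratios, whose part was not tested. Differences were 0.60, 0.10 and 0.50 (SE 0.42 each) for transplanted SMA minus wild type, for transplanted SMA minus SMA and for SMA minus wild type.

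The second Id2 probe set (1422537_a_at) read 97.2, 39.6 and 101.2 in transplanted SMA mice, 74.7, 53.8 and 51.4 in SMA mice, and 41.7, 48.3 and 64.2 in wild-type mice. It did not share the pattern by number, since SMA 3 was its lowest SMA array. Another, dim Id2 probe set read 7.4 to 21.4.

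Id3, commonly switched on together with Id1, had a largest difference of 0.28, for transplanted SMA minus SMA. It read 337.9, 247 and 416.2 in transplanted SMA mice, 222.4, 279.1 and 305.1 in SMA mice, and 281.2, 248.7 and 336.5 in wild-type mice. The differences were 0.18, 0.28 and -0.10 (SE 0.22 each) for transplanted SMA minus wild type, for transplanted SMA minus SMA and for SMA minus wild type. All groups overlapped.

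**Figure D3:**
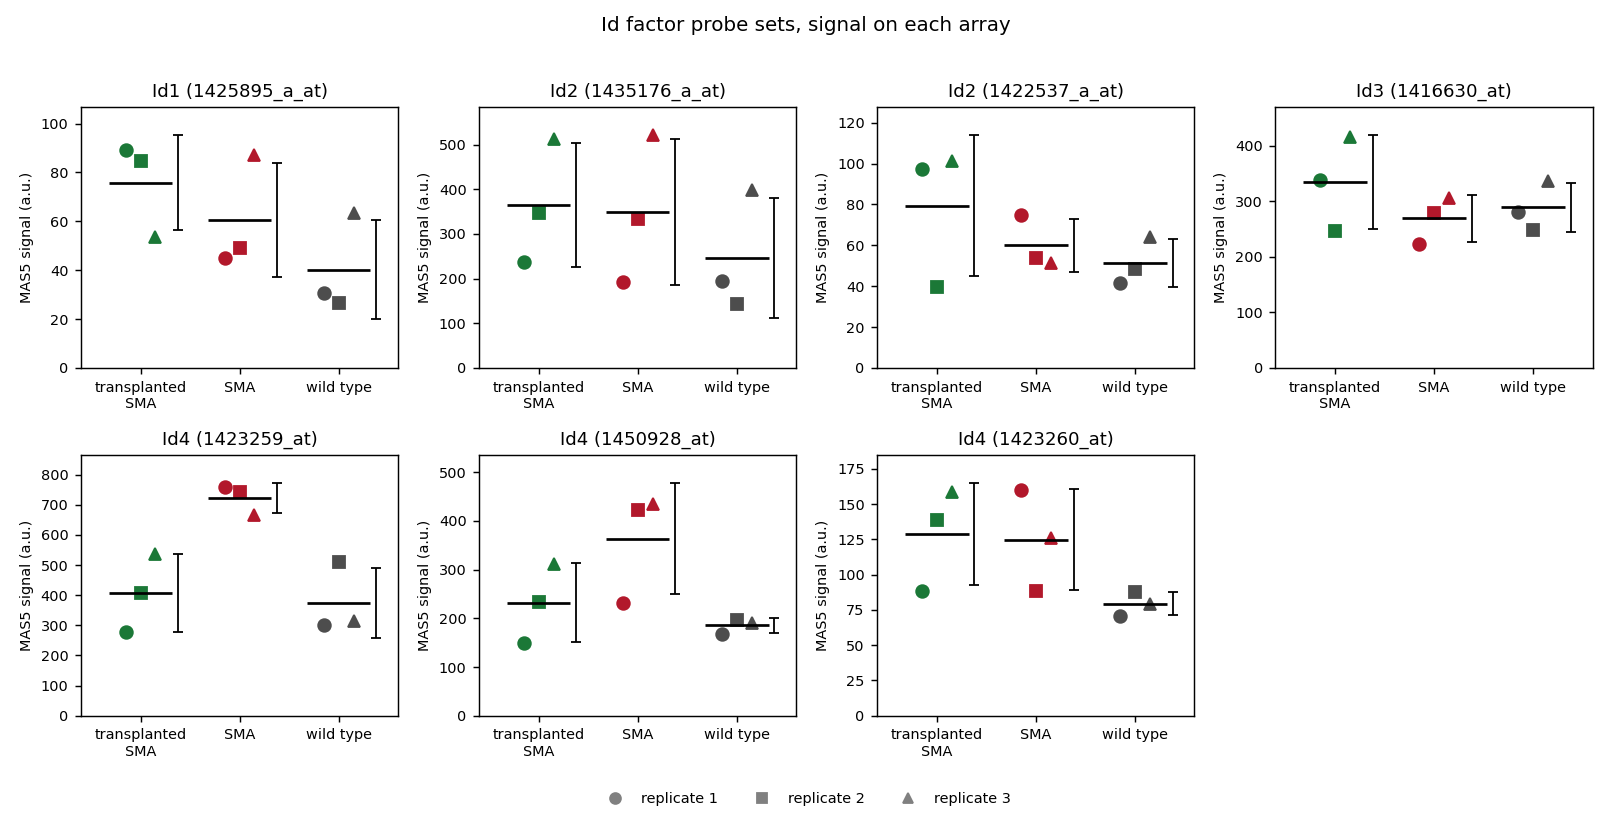
MAS5 signal (arbitrary units, linear axis from 0) of the tested Id probe sets on each array, with transplanted SMA, SMA and wild type from left to right. Symbols are animals, black lines are means and bars are 1 SD (n = 3); at 1423259_at of Id4 the SMA animals sit at 665.1 to 757.7, above all others, and at 1435176_a_at of Id2 replicate 3 is the highest in each group.

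Over the 18 tested member probe sets, 0 passed an adjusted p of 0.05 with limma in any of the 3 comparisons. Over all 11313 the share called was 0.0442% for SMA minus wild type and 0% for both others. The smallest adjusted p among members was 0.105 for transplanted SMA minus wild type, 0.933 for transplanted SMA minus SMA and 0.534 for SMA minus wild type.

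At an unadjusted p under 0.05 there were 4 higher member probe sets for SMA minus wild type (3 of Id4 and 1 of Smad4), where the share over all tested was 2.71%, and 1 lower (Bmpr2), where it was 3.32%. For transplanted SMA minus SMA there were 0 higher, against 2.32%, and 2 lower, of Bmpr2 and Id4, against 2.46%. For transplanted SMA minus wild type there were 2 higher, Id1 and Id4, against 3.27%, and 1 lower, Bmpr2, against 3.28%. Since the members were picked with these values known, nothing is read from these counts.

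Groups did not overlap at 4 tested member probe sets for SMA minus wild type (11.4% of all tested), at 3 for transplanted SMA minus SMA (9.11%) and at 2 for transplanted SMA minus wild type (14.1%). The median member difference was 0.18 for SMA minus wild type, -0.11 for transplanted SMA minus SMA and 0.12 for transplanted SMA minus wild type, beside medians of 0.01, 0.00 and -0.01 over all tested probe sets.

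**Figure D4:**
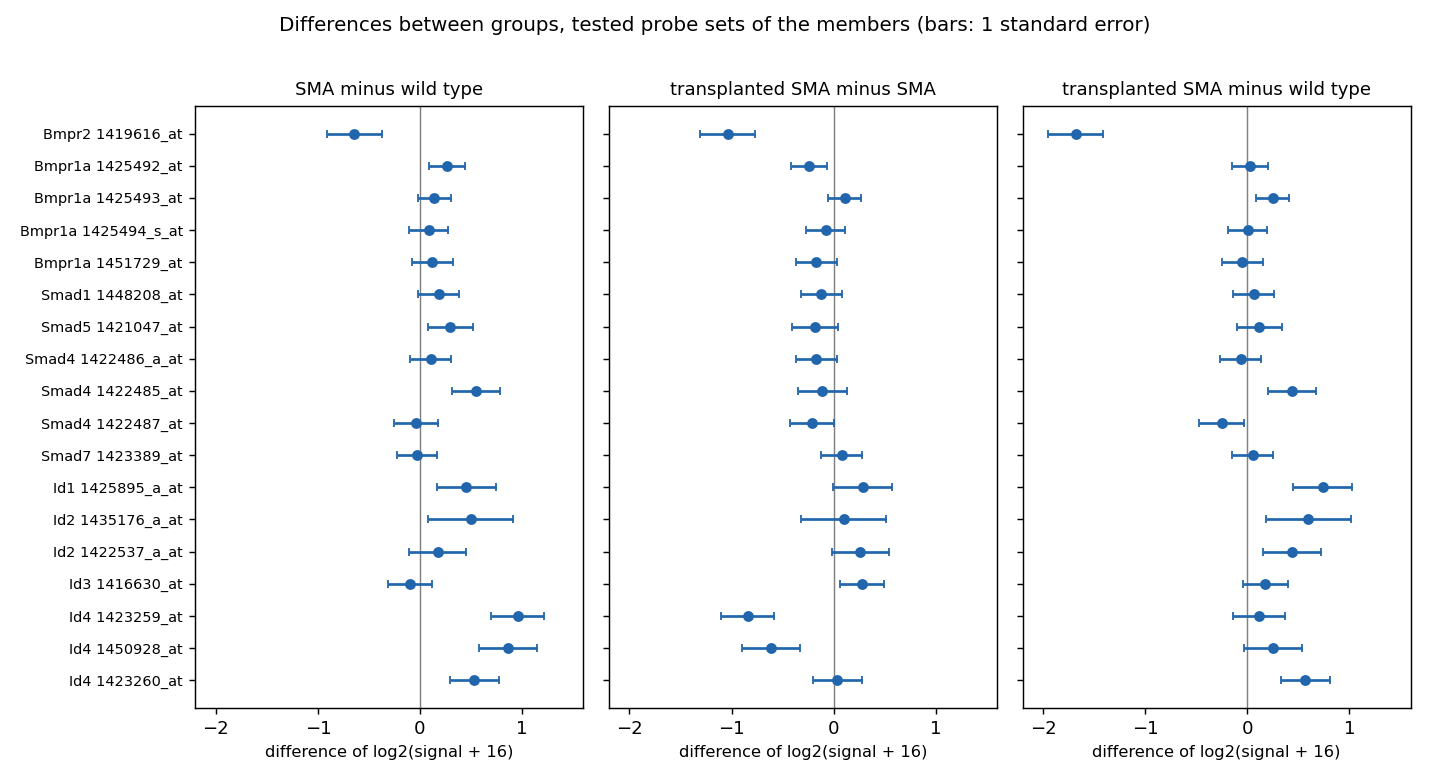
Difference of log2(signal + 16) between groups (horizontal axis) for the 18 tested probe sets of the members, in 1 panel per comparison; points are limma estimates and bars are 1 SE. Bmpr2 lies left of 0 in each panel, at -0.64, -1.04 and -1.68, and the 3 Id4 probe sets lie right of 0 in the panel of SMA minus wild type.

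Beyond the members, 81 other genes of the pathway were looked up, 67 had a probe set that names them alone and 33 were bright enough to test. With limma 0 of the 33 passed an adjusted p of 0.05 in any comparison. At an unadjusted p under 0.05 there were 1 higher and 1 lower for SMA minus wild type, against 2.71% and 3.32% over all tested probe sets. For transplanted SMA minus SMA there were 2 higher, against 2.32%, and 0 lower, against 2.46%. For transplanted SMA minus wild type there were 4 higher, against 3.27%, and 0 lower, against 3.28%. The lists were chosen with earlier results of these data known, so nothing is read from these counts. The median difference of the 33 genes was 0.06, -0.04 and -0.03 in this order of comparisons.

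Ligands were mostly dim, with 2 of 10 tested. Bmp4, a dorsal ligand that favours astrocytes, read 113.5, 105.7 and 146.1 in transplanted SMA mice, 84.3, 92.3 and 101.7 in SMA mice, and 132.7, 216.8 and 94.2 in wild-type mice. SMA lay below transplanted SMA without overlap (0.33, SE 0.25, adjusted p = 0.933, for transplanted SMA minus SMA), and SMA minus wild type was -0.53 (SE 0.25, adjusted p = 0.842). Bmp7 differed by 0.01 for SMA minus wild type and by -0.20 for transplanted SMA minus SMA (SE 0.25 each).

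Of the other receptors, 6 of 7 were tested. Endoglin (Eng), a co-receptor of vessel cells, read 146.1, 80.1 and 68.4 in transplanted SMA mice, 45.1, 51.8 and 64.8 in SMA mice, and 91, 71.5 and 99.3 in wild-type mice. Every SMA animal was below every animal of both other groups. The difference was -0.56 (SE 0.25, limma adjusted p = 0.82) for SMA minus wild type and 0.66 (SE 0.25, limma adjusted p = 0.933) for transplanted SMA minus SMA. Of the 10 tested endothelial markers, 6 were higher and 4 lower for SMA minus wild type (median 0.09). For transplanted SMA minus SMA 9 were higher and 1 lower (median 0.57). Within each group the arrays had the same order by Eng as by that list, centred per gene. SMA 3, high in that list, had the highest Eng signal of the SMA mice, 64.8. The part of vessel cells in the Eng values was not tested. The type I receptor Acvr1 differed by -0.13 and 0.03 (SE 0.29 each) in the same comparisons, and Bmpr1b was too dim to test, at a mean signal of 9.23.

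Extracellular antagonists were dim too, with 2 of 11 tested, and noggin (Nog), chordin (Chrd) and the decoy receptor Bambi had mean signals of 6.59, 35.5 and 20.5. Sostdc1, a secreted antagonist, read 311.6, 111.4 and 44.7 in transplanted SMA mice, 15.9, 101.5 and 89.7 in SMA mice, and 2.8, 9.4 and 79.5 in wild-type mice (1.93, SE 0.72, adjusted p = 0.699, for transplanted SMA minus wild type). The groups overlapped, and its highest array, transplanted SMA 1, was also the highest in the list of meninges and fibroblasts (1.61, centred per gene). Of that list 7 of 8 markers were tested, with sums of 1649 to 7658 in transplanted SMA, 1696 to 2965 in SMA and 901.3 to 4698 in wild type, and their part was not tested. Twsg1, which binds BMPs together with chordin, read 95.3, 78.6 and 97 in transplanted SMA mice, 71.3, 63.9 and 77.6 in SMA mice, and 68.4, 70.9 and 60.6 in wild-type mice (0.36, SE 0.16, adjusted p = 0.754, for transplanted SMA minus wild type).

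Among other BMP targets, 6 of 11 were tested. Msx1, a homeobox target of the dorsal midline, read 79.9, 137.4 and 63.2 in transplanted SMA mice, 69.5, 61.2 and 111.1 in SMA mice, and 44.7, 53 and 39.7 in wild-type mice. Both SMA groups lay above wild type without overlap, by 0.77 (SE 0.27, adjusted p = 0.699) in transplanted SMA and 0.62 (SE 0.27, adjusted p = 0.816) in SMA. Junb, an immediate early factor also induced by BMPs, read 124, 87.8 and 69.1 in transplanted SMA mice, 46.7, 55.6 and 46.6 in SMA mice, and 23.5, 30.2 and 63.2 in wild-type mice.

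The Junb difference was 1.03 (SE 0.27, adjusted p = 0.523) for transplanted SMA minus wild type and 0.71 (SE 0.27, adjusted p = 0.933) for transplanted SMA minus SMA, without overlap in either. Hes5, a Notch target that BMPs can also raise, was lower in transplanted SMA mice, at 17.2, 38.6 and 31.1, than in wild-type mice, at 140.9, 56 and 44.2 (-0.998, SE 0.57, adjusted p = 0.814), and SMA 2 had its highest signal, 202.7. The inhibitory Smad6 and the BMP Smad Smad9 were too dim to test, at mean signals of 22.1 and 11.7. Of the bHLH partners, 5 of 8 were tested, and Tcf4, an E protein that Id factors bind, differed by 0.06 for SMA minus wild type and -0.29 for transplanted SMA minus SMA (SE 0.17 each).

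The TGF-beta branch had 5 of 9 genes tested, all with a positive difference for SMA minus wild type (median 0.32) and a negative one for transplanted SMA minus SMA (median -0.48). These comparisons share the SMA arrays, and 0 of the 5 had an unadjusted p under 0.05 in either. Microglia markers, of which 9 of 10 were tested, had the same signs at 8 of 9 for SMA minus wild type (median 0.22) and at 9 of 9 for transplanted SMA minus SMA (median -0.79). In the latter 4 were lower at an unadjusted p under 0.05 with limma, against 2.46% over all tested probe sets, and 0 passed an adjusted p of 0.05. Their summed signal was 5580 to 11416 in transplanted SMA, 10392 to 12499 in SMA and 6616 to 14389 in wild type, and their part in the TGF-beta values was not tested.

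**Figure D5:**
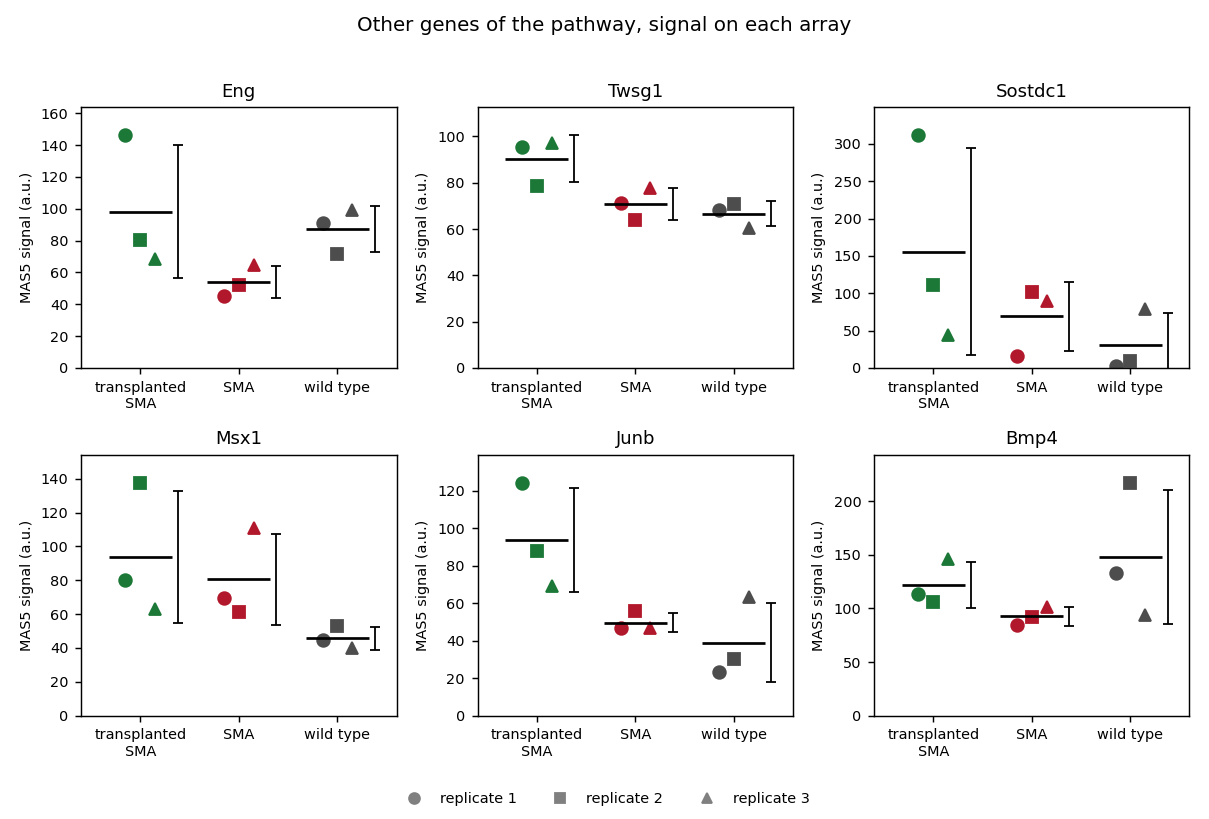
MAS5 signal (arbitrary units, linear axis from 0) of Eng, Twsg1, Sostdc1, Msx1, Junb and Bmp4 on each array, with transplanted SMA, SMA and wild type from left to right. Symbols are animals, black lines are means and bars are 1 SD (n = 3); SMA is lowest for Eng, at 45.1 to 64.8, and wild type lowest for Msx1, at 39.7 to 53.

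The genes most like 3 of the members over the 9 arrays were ranked by Pearson's r of log2(signal + 16) among 7253 other tested genes, as a description that shares the groups and the array effects above. For Bmpr2 they were D6Wsu163e (0.94), Ube2f (0.94) and Bag4 (0.92). For Id1 they were Ltbp4 (0.96), Nudt7 (0.94) and Foxo1 (0.93), and for Id3 Cmc2 (0.94), Ehd2 (0.91) and Gab3 (0.90). With so many genes and 9 arrays, values of this size are the top of a ranking and carry no p. No member of the pathway lists was among these 9 genes.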

How the data were processed

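The authors deposited 1 intensity per probe set on a linear scale, made with MAS5 and named so in the submitters' processing notes. MAS5 sets probes against mismatch partners and scales each array, and the mean trimmed by 2% at each end was 100.04 on every array. Which version of MAS5 was run is not stated in the labels. Per the labels' protocols the cRNA was amplified in 2 rounds, which favours 3' ends.

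Of 22690 probe sets, 64 controls were left out. Genes were named from the platform annotation where a probe set names 1 gene (20380 of 22626). Signals were taken to log2(signal + 16), a scale that shrinks the fold changes of dim probe sets. The brighter 50% by the mean over the 9 arrays (11313 probe sets) was fitted with limma 3.58.1 in R 4.3.3 (1 mean per group, eBayes with trend, 6 residual and 4.93 prior degrees of freedom, two-sided, Benjamini-Hochberg over all tested). No detection call entered the filter. The code was tested on simulated data. The number of arrays limits the precision. Lists use the brightest probe set of a gene. Named pathway genes were up to 3 per list and comparison with the smallest unadjusted p under 0.05, plus a fixed set. The members and lists were chosen with earlier results of these data known.

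Alternatives were other normalisations, pseudocounts, filters and eBayes settings, array weights, a fit of 6 arrays, the sample number as a block and leaving out arrays.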

Additional observations from a re-analysis of the deposited data

How the results depend on the processing

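The count of member probe sets past an adjusted p of 0.05 with limma was 0 under all 23 other settings in each comparison, except that array weights gave 1 for transplanted SMA minus wild type, which was Bmpr2. Over all probe sets, 5 passed for SMA minus wild type, 0 for transplanted SMA minus SMA and 0 for transplanted SMA minus wild type. The count for SMA minus wild type was 2 with the brighter 25% of probe sets and 2 to 13 when an array was left out. For transplanted SMA minus SMA it was 0 to 4 when an array was left out, the 4 without SMA 3. For transplanted SMA minus wild type it was 2 with a pseudocount of 1, 8 with array weights, 8 with only the 6 arrays compared, and 0 to 7 when an array was left out, the 7 without SMA 3. Settings chosen after seeing the data gave 0, 0 and 8 without SMA 1 and SMA 2 (SMA 3 alone being assumed to vary like the other groups), 14, 6 and 4 without the arrays numbered 3, and 11, 7 and 6 without SMA 3 and wild type 3, with the comparisons in the order given above. The cause was not tested.

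Of 1215 member differences under other settings, 18 moved by more than the replicate SD. The sign was the same under every setting for 13 of 18 probe sets for SMA minus wild type, 8 for transplanted SMA minus SMA and 11 for transplanted SMA minus wild type. With median centring the probe sets at an unadjusted p under 0.05 were 203 higher and 554 lower for SMA minus wild type, against 307 and 376 as deposited, and 220 higher and 613 lower for transplanted SMA minus wild type, against 370 and 371. The sample numbers are not known to pair animals. Deviations of same-numbered arrays correlated at -0.08 to 0.45, with 6 of 9 pairs above 0.1. Those of differently numbered arrays correlated at -0.47 to 0.33, and these values do not settle whether the numbers pair animals. With the replicate block 5, 0 and 0 probe sets passed in the 3 comparisons, and 0 member probe sets in each.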
